A study of Mus musculus with 12 samples.

Results

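Retinoid receptors and retinoid metabolism genes were examined in eosinophils of the mouse small intestine (SI), as 10 genes chosen by symbol: the retinoic acid receptors Rara, Rarb and Rarg, the retinoid X receptors Rxra and Rxrb, and the enzymes Aldh1a2, Cyp26a1, Cyp26b1, Dhrs3 and Rdh11. These 10 genes, chosen with earlier results of these data known, are 10 of the 36047 rows of the deposited table. RNA sequencing was performed on 3 subsets of eosinophils defined by the surface proteins integrin α4β7 and CD22, named α4β7+, α4β7− CD22− and CD22+, with 4 libraries per subset and 12 in all. All mice were wild type C57BL/6J on standard chow; the sample labels give their sex as female, whereas the study's methods state that both sexes, aged 6 to 12 wk, were used. For each library, live CD45+ CD11b+ SiglecF+ MHCII− Ly6G− cells of the proximal SI lamina propria were sorted from 2 pooled mice, so that a replicate is a pool and the p-values below measure the spread between pools. No group carried an allele, an agent or a diet that the others lacked.

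Retinoic acid is made from vitamin A in a pair of oxidation steps, from retinol to retinal and from retinal to retinoic acid. It acts through retinoic acid receptors (RARs), nuclear receptors that sit on DNA as heterodimers with retinoid X receptors (RXRs) and change the transcription of their target genes. Cells limit the signal by oxidizing retinoic acid with enzymes of the CYP26 family and by reducing retinal back to retinol, and several of these enzymes are themselves well known retinoic acid target genes. The SI takes up vitamin A from the diet, and its epithelium and some of its dendritic cells make retinoic acid.

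All 10 members had an average normalized count above 10, the minimum for testing, as did 15249 genes of the table. Cyp26a1 passed this minimum through the α4β7+ libraries alone, since its mean was 4.33 and 3.44 in the other subsets. The mean of Rarb was below the minimum in the CD22+ subset. A call required 1.5-fold or more and an adjusted p no higher than 0.05, from limma on log2(normalized count + 1) and the Benjamini-Hochberg adjustment. For genes with few counts a fold on this scale can differ from the ratio of the means, since 1 is added to each value and logs are averaged.

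The cells carried the RNA of their label. All 9 eosinophil marker genes, among them Siglecf, Ccr3 and Epx, were above 0 in every library, with sums of 102195 to 115809 normalized counts in α4β7+, 77407 to 84768 in α4β7− CD22− and 61977 to 67208 in CD22+ libraries. Marker genes of other intestinal cells were also above 0, and which cells supplied that RNA was not tested. All 12 enterocyte, all 15 dendritic cell and macrophage, and all 9 stromal markers were above 0 in every library, as were 6 of 7 Paneth cell, 11 of 12 measured lymphocyte, 3 of 6 neutrophil and 1 of 6 mast cell markers. Each library summed to 14286474 to 16915755 normalized counts. The median correlation of a library with the other 11 ranged from 0.932, in α4β7+ replicate 2, to 0.958, and no pair of libraries held identical values.

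Cyp26a1, which encodes the oxidase that inactivates retinoic acid, was found in α4β7+ eosinophils at a level that neither of the other subsets approached. The gene lies at chr19:37697798-37701536 on the plus strand (GRCm38, GENCODE M21) and shares no exon base with another gene. Its normalized counts in the α4β7+ libraries 1 to 4 were 225, 123, 294 and 272. In the α4β7− CD22− libraries they were listed at 0, 3.63, 9.60 and 4.10, and in the CD22+ libraries at 0, 7.0, 1.47 and 5.29. The lowest α4β7+ library, replicate 2, was thus far above the highest of the other 8. Because 1 read was worth roughly 0.852 to 1.16 normalized counts, the values outside α4β7+ stand for roughly 10 reads or fewer, and the ratios below have a poorly known denominator.

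The mean normalized count of Cyp26a1 was 228 ± 76.2 (SD, n = 4) for α4β7+, 4.33 ± 3.96 for α4β7− CD22− and 3.44 ± 3.25 for CD22+ eosinophils. The α4β7+ mean was 52.7 times the α4β7− CD22− mean and 66.4 times the CD22+ mean. On the log2 scale the difference was −5.78 in α4β7− CD22− (95% CI −7.37 to −4.18, adjusted p = 9.64e-05) and −6.03 in CD22+ eosinophils (95% CI −7.63 to −4.43, adjusted p = 3.21e-05). Between α4β7− CD22− and CD22+ eosinophils it was −0.25 (95% CI −1.85 to 1.35, adjusted p = 0.960), a wide interval. These are bulk samples, in which fewer cells with the transcript and less transcript per cell cannot be told apart, for this gene as for those below.

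The promoters of the members were searched for the motif that RAR-RXR dimers are known to bind, because Cyp26a1 and Rarb are textbook examples of direct retinoic acid targets. Its half-site was taken as AGGTCA in the classical form. The variants written AGTTCA and, with a first letter changed, GGGTCA or else GGTTCA were also accepted. A motif was a half-site repeated in the same direction after 1, 2 or 5 bases, on either strand, in the 250 bases before and the first 50 bases of each RefSeq transcript start (GRCm38.p6). All 10 members had a promoter in that set, 19 in all. Repeats 5 bases apart were found in the promoters of Cyp26a1 and Rarb and of no other member. Of all 27025 genes with a promoter, 31 (0.115%) held one; as the motif is known from these 2 genes among others, the share is given as background and nothing is read from the contrast. Repeats spaced by 1 and 2 bases occurred in 0.263% and 0.311% of genes and in no member. A half-site alone was found in 6 of 10 members and in 46.9% of all genes.

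The window of Cyp26a1 covers chr19:37697708-37697797, plus strand, 90 bases that end just before the first annotated exon; the repeat lies 32 to 16 bases before the RefSeq start, on the opposite strand, and reads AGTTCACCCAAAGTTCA there. The window of Rarb covers chr14:16575507-16575535 on the minus strand, inside an exon annotated for other transcripts of Rarb, with the repeat 53 to 37 bases before the start. Both are shown 5′ to 3′ along the gene, with the half-sites in capitals, because no other member had this repeat.
Cyp26a1: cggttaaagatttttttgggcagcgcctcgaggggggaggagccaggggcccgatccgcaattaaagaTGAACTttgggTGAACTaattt
Rarb: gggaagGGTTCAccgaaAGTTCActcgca
The repeats differ in sequence and in strand, and the genes that carry them differed in level. Cyp26a1 was the member with the largest difference between subsets, while Rarb, described below, had few counts and overlapped between them. A match in these letters is a description of the sequence, not evidence of binding.

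Cyp26b1, the second CYP26 oxidase, was also lower outside the α4β7+ subset, by less and with more spread. Its normalized counts in the 4 libraries were 71.1, 40.8, 69.9 and 54.9 in α4β7+, 29.6, 19.96, 5.88 and 33.6 in α4β7− CD22−, and 48.6, 19.3, 24.4 and 26.2 in CD22+ eosinophils. No α4β7− CD22− library reached the lowest α4β7+ library, whereas CD22+ replicate 1 lay above it. The log2 difference was −1.57 in α4β7− CD22− (95% CI −2.57 to −0.57, adjusted p = 0.0343) and −1.03 in CD22+ eosinophils (95% CI −2.03 to −0.03, adjusted p = 0.146), and only the first was called. The call was lost without α4β7+ replicate 1, 3 or 4 or without α4β7− CD22− replicate 2 or 3 (adjusted p = 0.0643 to 0.0851), and the difference was −1.07 without α4β7− CD22− replicate 3. The CD22+ and α4β7− CD22− subsets differed by 0.55 (95% CI −0.45 to 1.55), which was not called.

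Dhrs3, a reductase that returns retinal to retinol, had a narrow range in the α4β7+ subset. In α4β7+ libraries its normalized counts were 231, 234, 204 and 216. They were 83.2, 79.0, 108 and 95.3 in α4β7− CD22− libraries and 94.2, 69.7, 109 and 109 in CD22+ libraries. Every α4β7+ library held 204 or more, and none of the other 8 exceeded 109. The mean was 221 ± 14.2 for α4β7+, 91.3 ± 12.9 for α4β7− CD22− and 95.3 ± 18.4 for CD22+ eosinophils (SD, n = 4 each). The log2 difference from α4β7+ was −1.27 in α4β7− CD22− (95% CI −1.65 to −0.90, adjusted p = 0.000179) and −1.23 in CD22+ eosinophils (95% CI −1.60 to −0.85, adjusted p = 0.000136). Between the latter 2 subsets the interval was −0.33 to 0.43 around 0.05.

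Of the enzymes that make or interconvert retinal and retinoic acid, Aldh1a2 and Rdh11 were not called in any comparison. Aldh1a2, which oxidizes retinal to retinoic acid, had few counts: 38.1, 62.7, 31.4 and 32.4 in α4β7+, 42.8, 23.8, 26.1 and 32.0 in α4β7− CD22−, and 25.5, 22.1, 31.6 and 58.0 in CD22+ libraries. The 3 subsets overlapped. Its log2 differences from α4β7+ were −0.37 (95% CI −1.12 to 0.38) and −0.30 (95% CI −1.05 to 0.45), intervals that include changes past the fold threshold. The highest Aldh1a2 value of the CD22+ subset was in replicate 4, which also held the highest sum of dendritic cell and macrophage markers of any library, 27104 against 20411 to 20890 in the other CD22+ libraries. The highest α4β7+ value, in replicate 2, likewise fell in the library with the highest such sum of its subset, 25123 against 23957 to 24369. In the α4β7− CD22− subset the 2 did not go together: Aldh1a2 was highest in replicate 1, with a sum of 23723, and was 32.0 in replicate 4, which had the highest sum, 26844. The sort kept SiglecF+ MHCII− cells, and the part of dendritic cells and macrophages in the Aldh1a2 values was not tested.

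Rdh11, a retinal and retinol oxidoreductase of many tissues, was measured at 654, 678, 511 and 561 in α4β7+, 599.9, 714, 526 and 594 in α4β7− CD22−, and 668, 727, 660.4 and 768 in CD22+ libraries. The CD22+ libraries tended to the upper end, but the ranges overlapped. The log2 difference was 0.02 in α4β7− CD22− (95% CI −0.23 to 0.27) and 0.24 in CD22+ eosinophils (95% CI −0.01 to 0.49, adjusted p = 0.179), both from α4β7+, and 0.22 between CD22+ and α4β7− CD22− (adjusted p = 0.607).

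**Figure D1:**
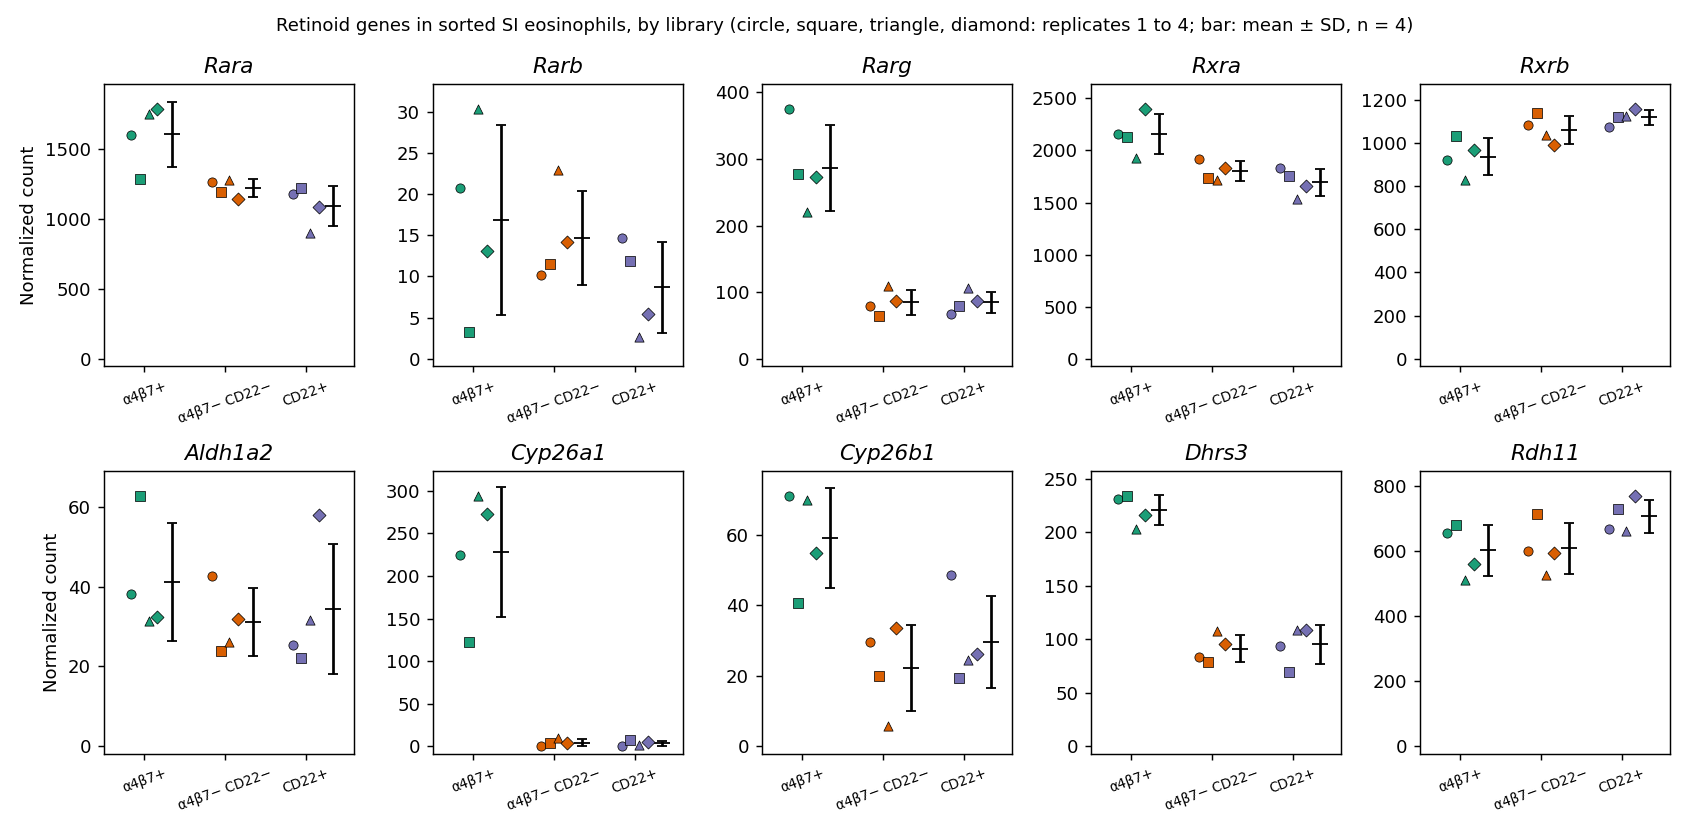
Normalized counts (vertical axis, linear, from 0) of the 10 members in each of 12 libraries, grouped by subset; symbols mark replicates 1 to 4 and black bars give the mean ± SD (n = 4). Cyp26a1 reaches 123 to 294 in α4β7+ and at most 9.60 elsewhere, Rarg and Dhrs3 separate α4β7+ from the other 8 libraries, and Rarb, Aldh1a2 and Rdh11 overlap between subsets.

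Among the RARs, Rarg was the one that was called. Its normalized counts were 375, 278, 220.5 and 273 in α4β7+, 79.7, 64.0, 109 and 86.1 in α4β7− CD22−, and 67.8, 78.7, 106 and 86.2 in CD22+ libraries. All 4 α4β7+ libraries lay above the other 8, which in turn overlapped with each other throughout their range. The means were 287 ± 64.6, 84.6 ± 18.6 and 84.8 ± 16.3 (SD, n = 4 each). Rarg was lower by 1.75 on the log2 scale in α4β7− CD22− eosinophils (log2 difference −1.75, 95% CI −2.20 to −1.30, adjusted p = 5.28e-05). In CD22+ eosinophils the log2 difference was −1.74 (95% CI −2.19 to −1.29, adjusted p = 2.63e-05). The difference between the CD22+ and α4β7− CD22− subsets was 0.01 (95% CI −0.44 to 0.46).

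Rara, the RAR with the highest level, was also highest in α4β7+ eosinophils, with smaller differences. The normalized counts were 1602, 1285, 1756 and 1792 in α4β7+, 1268, 1197, 1284 and 1142 in α4β7− CD22−, and 1181, 1220.4, 899 and 1087 in CD22+ libraries. The lowest α4β7+ library, replicate 2, exceeded the highest α4β7− CD22− library by less than 1 normalized count. The log2 difference from α4β7+ was −0.39 in α4β7− CD22− (95% CI −0.63 to −0.14, adjusted p = 0.0368) and −0.55 in CD22+ eosinophils (95% CI −0.80 to −0.30, adjusted p = 0.00307). These are folds of 1.31 and 1.46, under the fold threshold, so that Rara passed the adjusted p and was not called. In α4β7− CD22− the adjusted p was above 0.05 without a filter (0.0605), without the variance trend (0.0827), with the replicate block (0.0611) and in 7 of 12 refits with 1 library removed, those without any 1 α4β7− CD22− library or α4β7+ replicate 1, 3 or 4 (0.0550 to 0.105). Without α4β7+ replicate 2, CD22+ replicate 1 or CD22+ replicate 2 the CD22+ difference was −0.65, −0.59 or −0.60 and was called.

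Rarb, the third RAR, had few counts and was above 0 in all 12 libraries. Its normalized counts were 20.8, 3.29, 30.4 and 13.1 in α4β7+, 10.1, 11.5, 22.9 and 14.1 in α4β7− CD22−, and 14.7, 11.9, 2.68 and 5.40 in CD22+ libraries. The subsets overlapped, and the log2 differences of 0.07, −0.78 and −0.85 in the 3 comparisons had a standard error of 0.65 each, and 95% CIs that reached from −1.31 to 1.45 in the first. In that comparison the means ran the other way, 14.7 for α4β7− CD22− and 16.9 for α4β7+ eosinophils. The value itself is uncertain. The exons of Rarb share 2020 bases with genes on the opposite strand, Top2b among them, and 57.7% of its longest transcript matches Top2b transcripts, while the strand setting of the read assignment is not given in the sources used here. None of the other 9 members had such a match at an identity of at least 90%.

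The RXRs, the partners without which RARs do not bind DNA well, moved little and in opposite directions. Rxra had normalized counts of 2158, 2133, 1932 and 2401 in α4β7+, 1920, 1738, 1720.3 and 1836 in α4β7− CD22−, and 1832, 1752, 1533 and 1659 in CD22+ libraries. The lowest α4β7+ library was above all others by a small margin. The log2 difference was −0.25 in α4β7− CD22− (95% CI −0.43 to −0.08, adjusted p = 0.0515) and −0.35 in CD22+ eosinophils (95% CI −0.52 to −0.17, adjusted p = 0.00699), a fold of 1.27 in the latter. The first adjusted p was under 0.05 with the replicate block (0.0392), a filter at 50 (0.0405), quantile normalization (0.0467), a pseudocount of 10 (0.0491) and without α4β7+ replicate 3 (0.0288) or CD22+ replicate 3 (0.0458).

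Rxrb ran the other way. Its normalized counts were 920.3, 1030, 828 and 967 in α4β7+, 1081, 1138, 1036 and 988 in α4β7− CD22−, and 1075, 1118, 1125 and 1159 in CD22+ libraries. Each CD22+ library was above each α4β7+ library, and the log2 difference was 0.26 (95% CI 0.08 to 0.44, adjusted p = 0.0366), a fold of 1.20. In 6 of 12 refits with 1 library removed, those without any 1 CD22+ library or α4β7+ replicate 1 or 3, the adjusted p was 0.0545 or more, as it was without a filter (0.0708), without the variance trend (0.0611) and with only the subsets compared (0.0647). In α4β7− CD22− eosinophils it was 0.18 (95% CI 0.00 to 0.36, adjusted p = 0.172), with overlapping libraries. Neither RXR reached the fold threshold, so neither was called.

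Counted together, 4 of the 10 members were called lower and 0 higher in α4β7− CD22− than in α4β7+ eosinophils, where 8.05% of the 15249 genes tested were called, 3.70% higher and 4.35% lower. In CD22+ against α4β7+ eosinophils, 3 members were called lower and 0 higher, against 12.0% of all genes called, 5.60% higher and 6.39% lower. Cyp26a1, which was tested only because it was high in α4β7+, could be called in 1 direction alone; without it 3 and 2 of 9 members were called lower, and the medians given below would be −0.37 and −0.55. By the adjusted p alone, 5 members were lower in the first comparison (4 of 9 without Cyp26a1), where 14.9% of all genes passed and 7.73% were lower, and 5 were lower (again 4 of 9) and Rxrb higher in the second, where 21.1% passed and 11.1% were lower. The median log2 difference over the 10 members was −0.38 and −0.66, beside 0.00 and 0.01 over all genes. Libraries of the compared subsets did not overlap, on the lower side, for 6 and 5 members (5 and 4 without Cyp26a1), against 9.80% and 11.8% of all genes, and on the higher side for Rxrb in the second, against 11.0%. The 2 comparisons share the α4β7+ libraries and are not independent. The members were chosen with earlier results of these data known. The shares and medians of all genes are thus background, and nothing is read from the contrast.

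Between CD22+ and α4β7− CD22− eosinophils, limma called 0 of 10 members, beside 0.603% of all genes. None of the 10 had an unadjusted p under 0.05 in this fit; the smallest was that of Rdh11, 0.0797. With the replicate number as a block, 1 of 10 did: Rdh11, higher in CD22+ in 4 of 4 pairs (log2 difference 0.22, 95% CI 0.0034 to 0.44, unadjusted p = 0.0470, adjusted p = 0.471 by limma). That block spanned all 12 libraries, so it also joined the α4β7+ libraries by number, which were not taken as paired. The intervals below are from the fit without the block. Libraries did not overlap for 0 members, beside 6.37% of genes. The median difference of the members was 0.03. The intervals of Rara, Rarg, Rxra, Rxrb, Dhrs3 and Rdh11 lay within 0.5 log2 units of 0, and those of Rarb, Aldh1a2, Cyp26a1 and Cyp26b1 were wider.

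**Figure D2:**
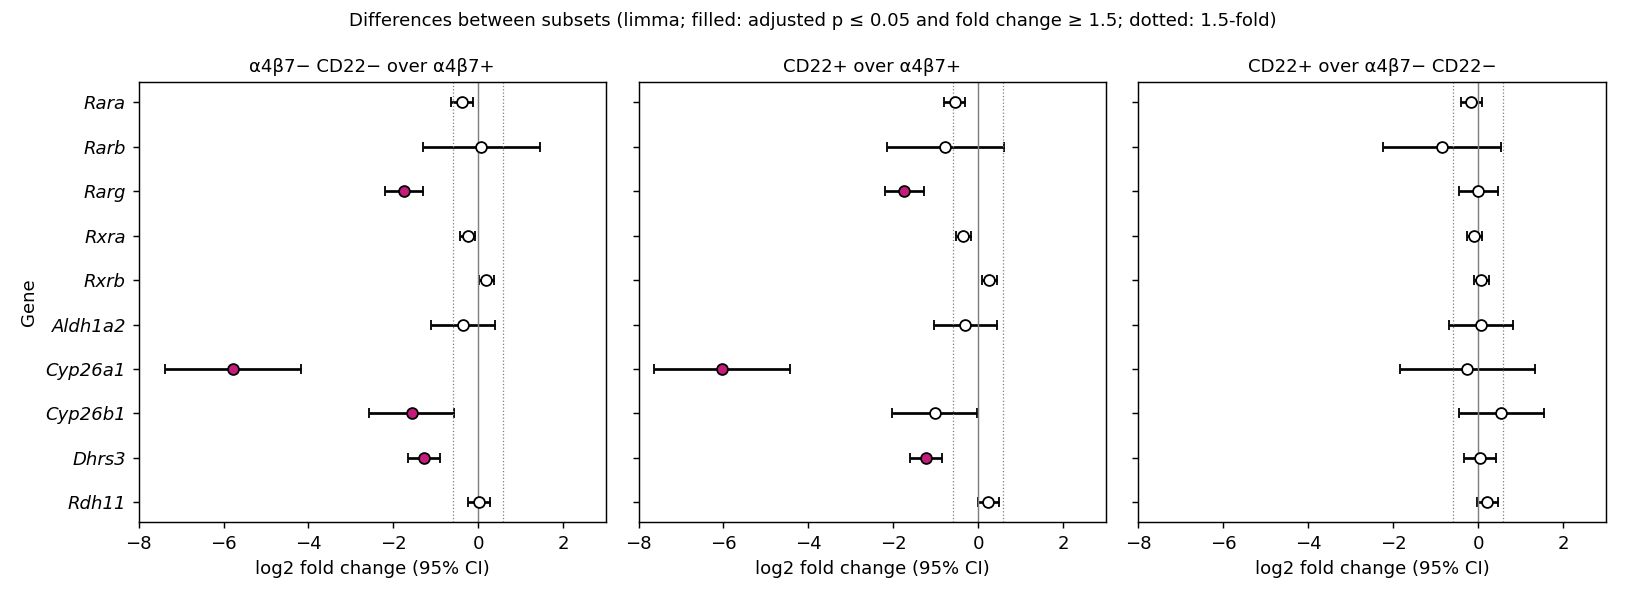
Log2 differences (horizontal axis) of the 10 members in 3 comparisons, with 95% confidence intervals from limma; filled points were called, and dotted lines mark 1.5-fold. In the first panel 4 members lie left of 0 as filled points and in the second 3, with Cyp26a1 at −5.78 and −6.03, and no point is filled in the third.

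To compare genes with one another, normalized counts were divided by the length of each gene's exons in kb. By this measure Rxra, at 395 per kb, and Rara, at 369, headed the members in α4β7+ eosinophils and did not separate from each other. Rxrb followed at 236, Rdh11 at 174 and Cyp26a1 at 115 per kb. Dhrs3 was at 75.5 and Rarg at 67.3 per kb, and their libraries overlapped. The range of Cyp26a1, 61.9 to 148 per kb, met those of Rdh11 above it and of Dhrs3 below it. Aldh1a2 at 18.2, Cyp26b1 at 11.1 and Rarb at 3.20 per kb closed the order, each below the one before it in every library.

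In the other subsets the RXRs, Rara and Rdh11 again held the upper 4 places, with Rxrb above Rara in CD22+ eosinophils, and the means of Cyp26a1, Dhrs3 and Rarg were further below them. In α4β7− CD22− eosinophils Rxra, Rara and Rxrb stood at 330.2, 280.1 and 267 per kb, with Rara and Rxrb overlapping, and Rdh11 at 176. The next member, Dhrs3, was at 31.2 and Rarg at 19.9 per kb, and Cyp26a1, mid-order in α4β7+ eosinophils, was last at 2.19 per kb. In CD22+ eosinophils Rxra, Rxrb, Rara and Rdh11 lay at 310.1, 282, 251 and 204 per kb, each overlapping with its neighbour, and Cyp26a1 and Rarb at 1.73 and 1.65 could not be told apart. With the length of the longest transcript in place of the exons, Rara ranked above Rxra in α4β7+ and Rxrb ranked first in both other subsets, so the order among these 3 receptors depends on the length used.

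Summed per kb, the RAR genes reached 439 ± 53.3 for α4β7+, 303 ± 18.0 for α4β7− CD22− and 273 ± 30.3 for CD22+ eosinophils (SD, n = 4 each). Rarg made up 15.5% ± 3.77 of this sum for α4β7+, 6.53% ± 1.20 for α4β7− CD22− and 7.48% ± 2.35 for CD22+ libraries. In each library Rara supplied most of the rest, 80.0% at the least, and Rarb 1.34% at the most. The share of Rarg did not overlap between the α4β7+ libraries, 11.3% to 19.2%, and the others, 5.15% to 10.8%.

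The RXR sum, with Rxrg at most 1.55% of it in any library, was steadier: 634 ± 48.3, 602 ± 21.4 and 596 ± 16.7 per kb. Within it the share of Rxrb went from 37.1% ± 1.73 to 44.3% ± 1.97 and 47.3% ± 2.35. The ratio of the RAR to the RXR sum was 0.696 ± 0.107 for α4β7+, 0.503 ± 0.0371 for α4β7− CD22− and 0.457 ± 0.0394 for CD22+ eosinophils, and ranged from 0.550 to 0.806, 0.476 to 0.558 and 0.404 to 0.496. The α4β7+ and CD22+ ranges were apart, and the middle range met both of them.

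The CYP26 sum per kb was 128 ± 40.7 for α4β7+ eosinophils, 9.27 ± 1.75 for α4β7− CD22− and 9.86 ± 2.35 for CD22+ eosinophils. Cyp26a1 was 89.8% ± 1.91 of it in α4β7+. Where the sum was low, the shares rested on few reads: that of Cyp26a1 ran from 0 to 68.3% among the α4β7− CD22− libraries. Cyp26c1, the remaining oxidase of the family, did not exceed 7.31 normalized counts in any library and was not tested.

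**Figure D3:**
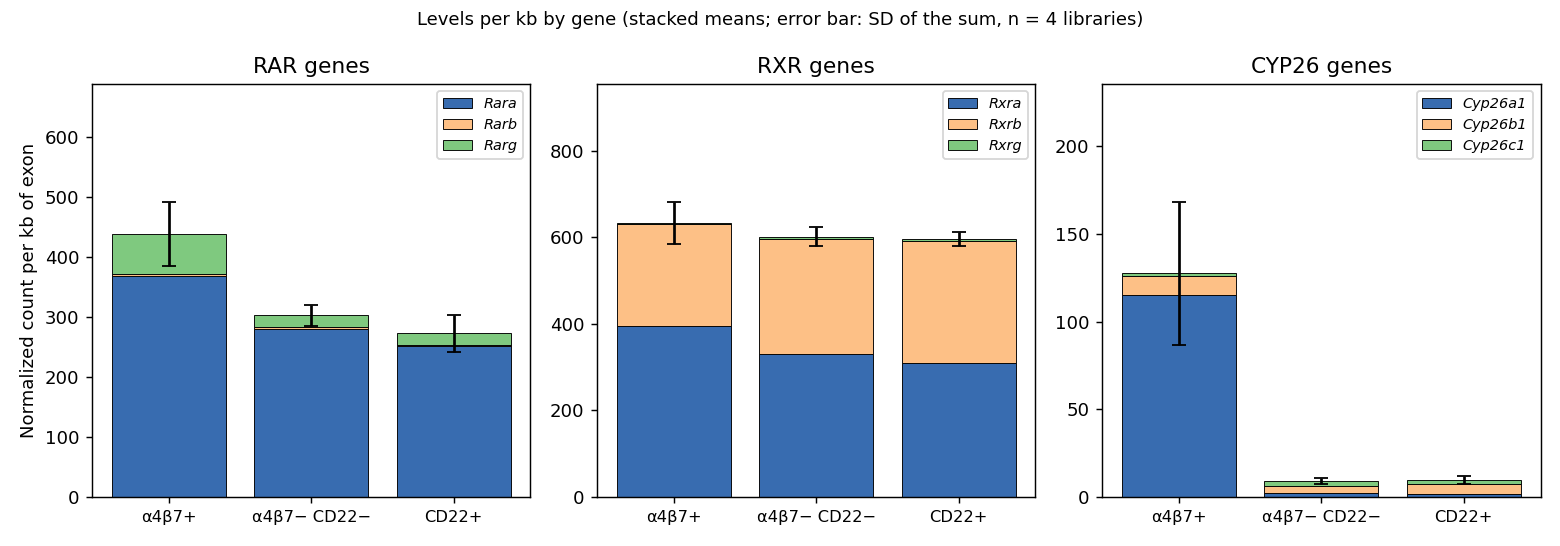
Normalized counts per kb of exon (vertical axis, linear, from 0) of the RAR, RXR and CYP26 genes in the 3 subsets, as stacked means with the SD of the sum over 4 libraries. The RAR sum goes from 439 in α4β7+ to 303 and 273, the RXR sum stays between 634 and 596, and the CYP26 sum goes from 128 to 9.27 and 9.86.

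Enterocytes also express retinoid genes, so their markers were set beside the members in each library. The sum of 12 enterocyte markers ranged from 3715 to 8856 normalized counts in α4β7+, from 2572 to 5950 in α4β7− CD22− and from 1569 to 9940.2 in CD22+ libraries. The library with the highest sum was CD22+ replicate 3, in which Cyp26a1 was at 1.47, Rarg at 106 and Dhrs3 at 109. The α4β7+ library with the lowest sum, replicate 1 at 3715, held Cyp26a1 at 225, Rarg at 375 and Dhrs3 at 231. None of the 12 enterocyte markers was called in any comparison. Of all genes, 8.05% were called in α4β7− CD22− and 12.0% in CD22+ against α4β7+, and 0.603% between CD22+ and α4β7− CD22−. The median log2 difference of the enterocyte markers was −0.54 for α4β7− CD22− and −0.57 for CD22+ eosinophils against α4β7+, the direction of the called members. Within the α4β7− CD22− subset Cyp26a1, Rarg and Dhrs3 were each highest in the replicate with the highest enterocyte sum, replicate 3, as was Rarg within the CD22+ subset. The sort kept CD45+ cells, and the part of enterocyte RNA in these values was not tested.

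The summed neutrophil markers were highest in α4β7+ libraries, as the called members were. The sum was 34583 to 43915 in α4β7+, 18766 to 23100 in α4β7− CD22− and 13214 to 14901 in CD22+ libraries. It consisted mainly of Retnlg and Mmp9. Csf3r, the receptor for G-CSF, went the other way, at 327 to 549, 666 to 976 and 970 to 1331, and was called higher in both comparisons with α4β7+. Of the 4 neutrophil markers tested, 2 were called lower in α4β7− CD22− and 3 in CD22+ than in α4β7+, beside 4.35% and 6.39% of all genes. In CD22+ against α4β7− CD22− eosinophils 1 of 4 was called lower, beside 0.603% of all genes called in either direction. Of the remaining 3 markers, S100a9 was at 8.06 to 43.1 in α4β7+, 4.35 to 12.4 in α4β7− CD22− and 0 to 6.37 in CD22+ libraries, Ly6g, whose protein was gated out in the sort, was at most 10.8, and S100a8 was above 0 in 1 of 12 libraries, at 1.03. Summed eosinophil markers were likewise highest in α4β7+, with 3 of 9 called lower for α4β7− CD22− and 5 of 9 for CD22+ eosinophils, beside 4.35% and 6.39% of all genes. When CD22+ was set against α4β7− CD22−, 1 of 9 was called lower, beside 0.603% of all genes called in either direction. The parts of these differences in the retinoid results were not tested.

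Lymphocyte markers summed to 15537 to 34098, 11209 to 33765 and 15913 to 36632 in the order of the subsets, and stromal markers to 10732 to 12298, 12863 to 14033 and 11608 to 12480.0. Of the 12 lymphocyte markers, 3 were called lower in α4β7− CD22− eosinophils and 0 in the other comparisons; 0 of 9 stromal markers were called. Paneth cell markers summed to 209 to 565, 94.2 to 416 and 205 to 1791, with 1 of 6 tested called higher in CD22+ than in α4β7+. Mast cell markers did not exceed 180.0 in sum, with Tpsb2 at 0 throughout. Of 15 dendritic cell and macrophage markers, 1 was called lower in α4β7− CD22− than in α4β7+ eosinophils and 0 in the other comparisons. Beside these counts, 8.05% of all genes (4.35% lower) were called in α4β7− CD22− against α4β7+. The shares were 12.0% (5.60% higher) in CD22+ against α4β7+ and 0.603% between CD22+ and α4β7− CD22−.

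**Figure D4:**
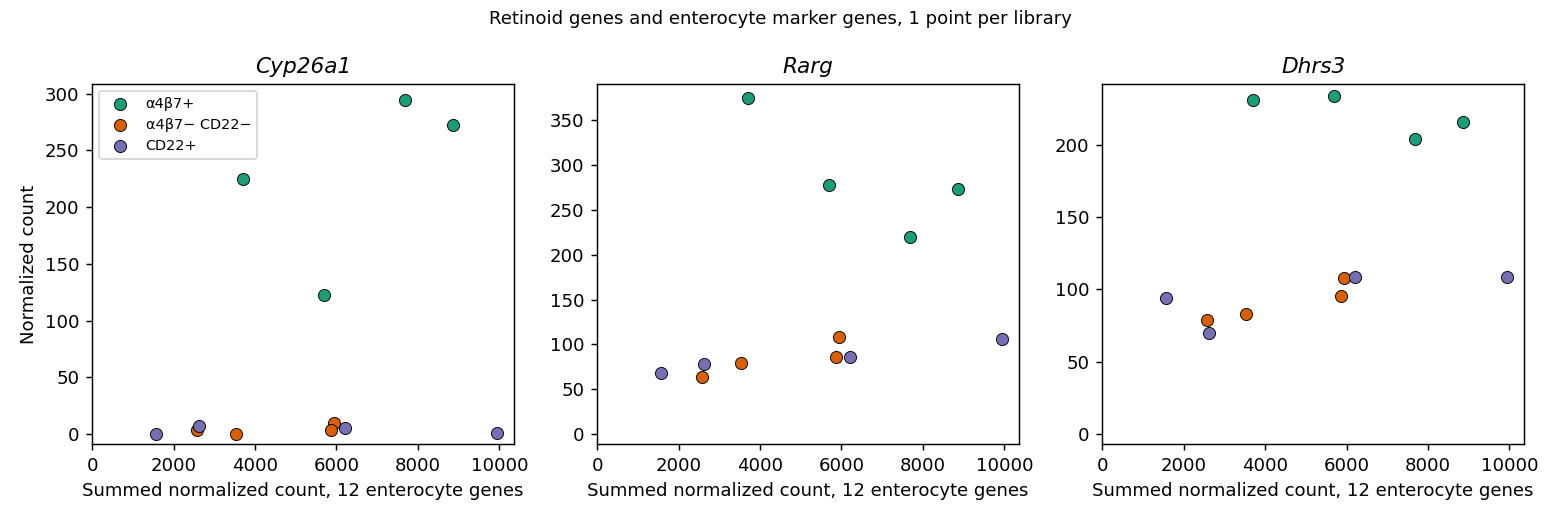
Normalized counts of Cyp26a1, Rarg and Dhrs3 (vertical axes, linear) against the summed normalized count of 12 enterocyte marker genes (horizontal axis), 1 point per library, coloured by subset. The α4β7+ points lie above the others at enterocyte sums from 3715 to 8856, and the CD22+ library at 9940.2 has Cyp26a1 at 1.47.

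The members were next placed among other genes of the pathway. Of 49 other genes that handle retinoids, 48 had a row and 29 passed the minimum. In α4β7− CD22− against α4β7+ eosinophils 2 were called higher and 0 lower, where 8.05% of all genes were called. Calls in CD22+ eosinophils numbered 4 higher and 1 lower against α4β7+, beside 12.0% of all genes, and 2 higher and 0 lower against α4β7− CD22−, beside 0.603%. The median log2 differences of 0.03, −0.03 and 0.09 were close to those of all genes, 0.00, 0.01 and 0.00.

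Cyp1b1, a monooxygenase that accepts retinol and many other substrates and is best known as a target of the aryl hydrocarbon receptor, rose from 403 to 581 normalized counts in α4β7+ libraries to 2339 to 3548 in α4β7− CD22− and 3774 to 5021 in CD22+ libraries. The log2 difference from α4β7+ was 2.56 (SE 0.14, adjusted p = 2.62e-08) and 3.21 (SE 0.14, adjusted p = 7.53e-10). The further step of 0.65 between CD22+ and α4β7− CD22− was called (adjusted p = 0.0361), but held in only 5 of 12 refits with 1 library removed and was lost without a filter or without the variance trend.

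Stra6l, a receptor for retinol-binding protein, was highest in CD22+ eosinophils, at 339, 358, 209 and 307, against 96.0 to 118 in α4β7+ and 105 to 173 in α4β7− CD22− libraries. It was called higher than in either of them, by 1.51 (adjusted p = 5.73e-05) and 1.13 (adjusted p = 0.0121), and kept both calls without any 1 library. Fabp5, a carrier of fatty acids and retinoic acid, was higher than in α4β7+ by 1.37 (adjusted p = 0.0205) among α4β7− CD22− and 1.64 (adjusted p = 0.00476) among CD22+ eosinophils. Without α4β7+ replicate 1 or α4β7− CD22− replicate 1 the first of these was not called. Rdh5, a retinol dehydrogenase of the visual cycle, was higher in CD22+ by 0.97 (adjusted p = 0.0226), a call lost without a filter and without α4β7+ replicate 3, CD22+ replicate 2 or CD22+ replicate 3.

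Dhrs9, a dehydrogenase that oxidizes retinol, was the called gene that fell. Its normalized counts were 107 to 191 in α4β7+, 92.6 to 130.4 in α4β7− CD22− and 27.9 to 79.3 in CD22+ libraries, with a log2 difference of −1.70 between CD22+ and α4β7+ (adjusted p = 0.000624). The step from α4β7− CD22− to CD22+ was −1.15 and was not called (adjusted p = 0.0868), except in the refit without CD22+ replicate 1 (adjusted p = 0.0297). The uncalled genes with the highest level per kb were Dgat1, which can esterify retinol, at 494 per kb over all libraries, Rdh12, a retinal reductase, at 229, and Rbp2, the retinol carrier of enterocytes, at 185. Rbp2 varied within the CD22+ subset from 48.0 in replicate 1 to 287 in replicate 3, the libraries with the lowest and the highest enterocyte sum.

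Of 33 genes known as retinoic acid targets in various cells, 26 passed the minimum, 4 of them the members Rarb, Cyp26a1, Cyp26b1 and Dhrs3. Among the other 22, 0 were called higher and 1 lower in α4β7− CD22−, and 2 higher and 2 lower in CD22+ eosinophils, each against α4β7+, and 0 were called between CD22+ and α4β7− CD22−, beside the same shares of all genes, 8.05%, 12.0% and 0.603%. Their median log2 differences were −0.18, −0.18 and 0.07. The list is drawn from many tissues.

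Meis1, a homeobox factor of blood progenitors, was lower by 0.76 in α4β7− CD22− (log2 difference −0.76, adjusted p = 2.71e-05) and by 1.0 in CD22+ eosinophils (log2 difference −1.0, adjusted p = 8.17e-07). Its normalized counts were 2605 to 2918 in α4β7+, 1484 to 1808 in α4β7− CD22− and 1229 to 1496 in CD22+ libraries, and both calls were kept without any 1 library. Asb2, a ubiquitin ligase subunit induced by retinoic acid in leukemia cells, had a mean of 11640.2 for α4β7+, 9557 for α4β7− CD22− and 7640.0 for CD22+ eosinophils. Its log2 difference of −0.61 in CD22+ was called (adjusted p = 0.000482), close to the fold threshold, and was not called under either other scaling or without α4β7+ replicate 1, α4β7+ replicate 3 or CD22+ replicate 3.

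Uba7, the activating enzyme of the ubiquitin-like protein ISG15, was higher in CD22+ than in α4β7+ eosinophils by 0.62 (adjusted p = 0.00288), with 2141 to 2539 normalized counts against 1164 to 1956. The call was lost without α4β7+ replicate 1, α4β7+ replicate 2 or CD22+ replicate 1, where the difference was at the least 0.50. Hoxb4, a homeobox gene, was higher by 0.63 (adjusted p = 0.0175), with overlapping libraries, and lost the call with a pseudocount of 10 and without α4β7+ replicate 2, CD22+ replicate 1 or CD22+ replicate 3. The uncalled targets with the highest level were Tgm2, Egr1 and Hic1. Tgm2, a transglutaminase, had means of 77887, 68892 and 52506 in the order of the subsets and a log2 difference of −0.58 in CD22+ (adjusted p = 0.000493), a fold of 1.49, just under the threshold. It was called in 4 of 12 refits with 1 library removed, those without α4β7+ replicate 2 or CD22+ replicate 1, 2 or 4. Egr1, an immediate early transcription factor, had means of 30134, 39511 and 30755. Hic1, a transcriptional repressor, had means of 14015, 13237 and 12356.

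Of 36 genes for other RXR partners and for coactivators and corepressors of nuclear receptors, 33 passed the minimum. In α4β7− CD22− eosinophils 2 were called higher and 0 lower, and in CD22+ 2 higher and 1 lower, against α4β7+, beside 8.05% and 12.0% of all genes called, with medians of −0.03 and −0.02. Between CD22+ and α4β7− CD22−, 0 were called, beside 0.603% of all genes. Thrb, the thyroid hormone receptor β, which pairs with RXRs, was at 11.1 to 38.8 in α4β7+, 42.8 to 106 in α4β7− CD22− and 89.1 to 134 in CD22+ libraries. It was higher by 1.24 (adjusted p = 0.0397) and 2.06 (adjusted p = 0.00106), and the first of these held in 7 of 12 refits with 1 library removed and was lost without a filter, without the variance trend and with only the subsets compared.

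Nr2c1, an orphan receptor that binds the same kind of repeated half-sites, was higher by 0.60 (adjusted p = 0.0110) and 0.77 (adjusted p = 0.00115), from 86.5 to 101 in α4β7+ to 123 to 157 and 149.9 to 169.5. The smaller of these 2 differences was at the fold threshold and was not called with a pseudocount of 10 or without α4β7+ replicate 2, α4β7− CD22− replicate 2 or α4β7− CD22− replicate 4. Ncoa1, a coactivator of nuclear receptors, was lower in CD22+ eosinophils, with a log2 difference of −0.90 (adjusted p = 0.00132), and had means of 1355, 909.9 and 722. In α4β7− CD22− its difference of −0.56 was under the fold threshold, and was called lower without α4β7+ replicate 3 or α4β7− CD22− replicate 3. The uncalled genes with the highest level per kb were Nr4a1, a receptor that can pair with RXRs, at 1308, the coactivator Ncoa3 at 1008, and Gps2, a subunit of a corepressor complex, at 971.

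**Figure D5:**
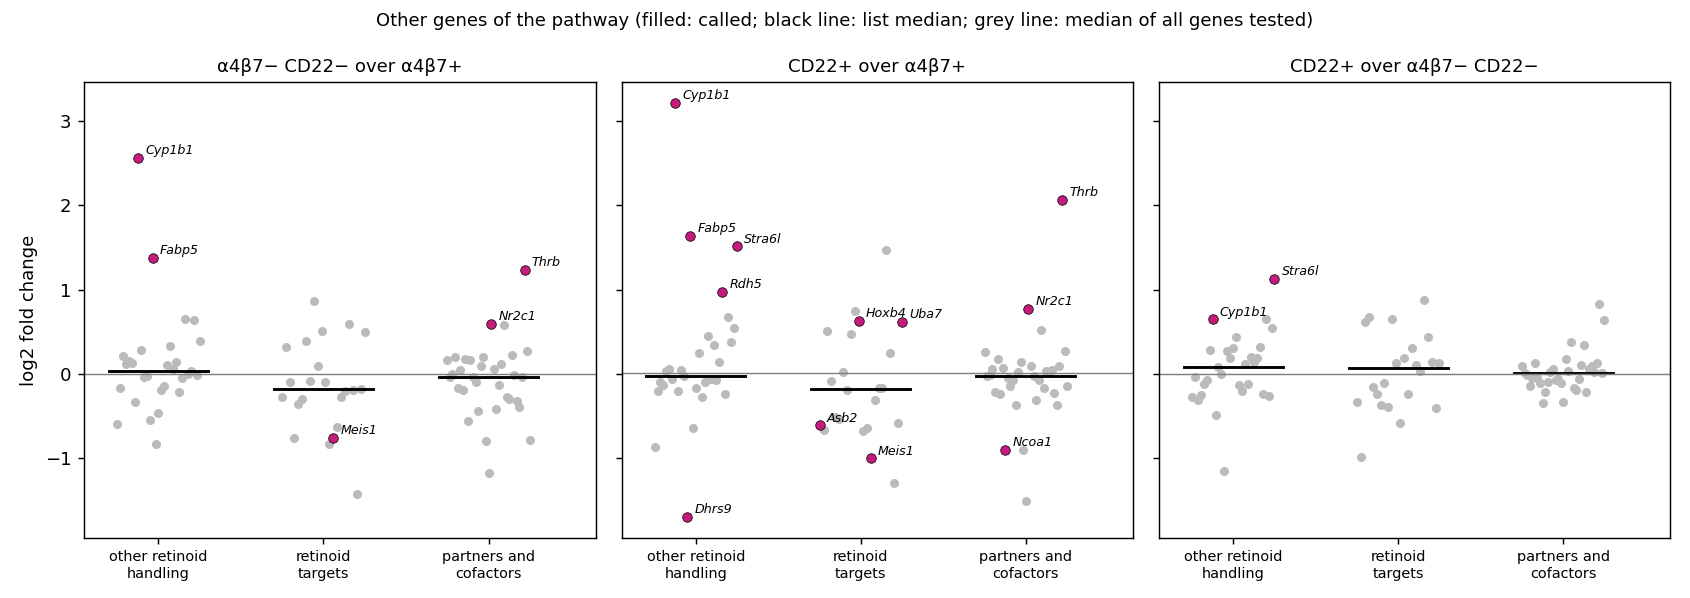
Log2 differences (vertical axis) of the tested genes of 3 lists, without the 10 members, in 3 comparisons, 1 point per gene; filled points were called and are named, black lines mark the list medians and the grey line the median of all 15249 genes tested. The medians lie between −0.18 and 0.09, and Cyp1b1 stands highest, at 2.56 and 3.21.

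For each called member, the genes with the most similar pattern over the 12 libraries were found by the Pearson correlation of log2(normalized count + 1), among 9176 or 9177 genes with a mean of at least 100. These correlations describe 12 libraries that fall into subsets, and they carry no test. For Cyp26a1 the genes were C3ar1 (r = 0.967), Slc8a1 (0.963) and Atp8b4 (0.962). C3ar1, the receptor for complement C3a, had means of 460.5, 57.0 and 69.8 in the order of the subsets, and Slc8a1, a sodium-calcium exchanger, of 660.1, 155 and 117. For Rarg they were Fam120a (0.966), C3ar1 (0.966) and Dhrs3 (0.966), the last being itself a member.

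For Dhrs3 the most similar genes were Ak3 (0.975), a mitochondrial adenylate kinase, Ddit4 (0.975), a stress-induced inhibitor of mTORC1, and Hpn (0.968), a membrane serine protease. Ddit4 had means of 346, 81.9 and 61.9. Cyp26b1, whose counts were low, had the weakest likeness, with Nhp2 (0.913), Mbd3 (0.897) and Morc3 (0.864). Nhp2, a small ribonucleoprotein subunit, had means of 263, 163 and 179.6 in the order of the subsets.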

How the data were processed

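RNA of sorted eosinophils was sequenced in 12 libraries, 4 per subset, from 3 ng of RNA each with a stranded total RNA kit for small inputs. Per the labels and the study's methods, the authors trimmed the reads with Trimmomatic 0.39, pseudoaligned them to mm10 (GRCm38) with kallisto 0.46.1 and normalized the counts with DESeq2 1.38.2. The authors deposited the result, normalized counts of 36047 genes, as a signal in arbitrary units. They are not whole numbers, since kallisto estimates counts, so whole reads could not be recovered and no count model was run. Depth in raw reads is unknown; the value of 1 read was taken from the most frequent low value and is approximate, with 51.8% to 76.3% of the low values of a library within 5% of it. The annotation release and strand setting of the authors are not given in the sources used here. Pseudoalignment leaves reads shared between genes to an estimate, which bears on Rarb.

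Genes with an average above 10 (15249) entered a limma 3.58.1 fit (R 4.3.3) of log2(normalized count + 1) that held the 3 subsets and a variance trend, after the script was tested on simulated data. The thresholds for a call were those of the study, an adjusted p up to 0.05 within a comparison and 1.5-fold or more. Lengths and positions came from GENCODE M21 (35968 identifiers matched), promoters from RefSeq (GRCm38.p6), and shared transcript sequence from BLAST 2.17.0. Python 3.11.15 with pandas 2.3.3 and matplotlib 3.10.9 made the tables and plots.

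The members and lists were chosen with earlier results of these data known. Named were all members, the called genes of each list (at most 8, by size of difference), the 3 uncalled genes of each list with the highest level per kb, and the 3 genes most like each called member. Itga4 and Itgb7 were kept out of the target list because they encode the sorted integrin. The alternatives were pseudocounts of 0.1 and 10, a filter at 50 or none, quantile normalization, rescaling to the 75th percentile, no variance trend, only the subsets compared, the adjusted p alone, the replicate number as a block, the length of the longest transcript, and each library left out in turn. In the labels, replicate numbers are shared between subsets. Deviations from the subset means of same-numbered libraries correlated at 0.135 to 0.203 between CD22+ and α4β7− CD22−, every pair above 0.1, so the numbers were taken to pair these libraries.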

Additional observations from a re-analysis of the deposited data

Results flagged for a closer look

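Each group of 4 libraries was searched for a library far from the other 3, for the members, the named genes and the marker sums; chance alone marks about 1 group in 20. Of 117 groups searched 2 were marked, fewer than that share. None of the 10 members had such a library in any subset. Asb2, a retinoic acid target, was at 9886 normalized counts in α4β7− CD22− replicate 1, against 9414 to 9480.3 in the other 3 libraries of the subset, a gap that is large only beside how closely those 3 lie. The summed dendritic cell and macrophage markers were 27104 in CD22+ replicate 4, against 20411 to 20890 in the other CD22+ libraries. That library also had the highest Aldh1a2 value of its subset, 58.0, and the part of dendritic cells and macrophages in it was not tested.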

How the results depend on the processing

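The calls of Cyp26a1, Rarg and Dhrs3 against α4β7+ were kept under every alternative that was run and without any 1 library. The log2 difference of Cyp26a1 ranged from −6.78 to −4.03 in α4β7− CD22− and from −7.11 to −4.11 in CD22+ eosinophils, depending on the pseudocount of 0.1 or 10, as its counts outside α4β7+ are near 0. The call of Cyp26b1 in α4β7− CD22− was lost without a filter (adjusted p = 0.0636), without the variance trend (0.0545) and with only the subsets compared (0.05004); with a filter at 50 it was not tested. In CD22+ it was called without α4β7− CD22− replicate 3 (adjusted p = 0.0447), a library of neither subset compared. By the adjusted p alone, 6 members rather than 3 were called in CD22+ against α4β7+. Leaving out 1 library gave 3 to 4 called members in both comparisons with α4β7+ and 0 in the third. Rescaling moved the median of all genes to at most 0.05.

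Differences near 0 changed sign and were called in no case. That of Rarb between α4β7− CD22− and α4β7+ was −0.036 with a pseudocount of 10, and those of Rarg and Dhrs3 between CD22+ and α4β7− CD22− were −0.050 and −0.015 after quantile normalization. Without 1 library, the differences ran from −0.50 to 0.45 for Rarb and from −0.062 to 0.085 for Rdh11 in α4β7− CD22− against α4β7+. Between CD22+ and α4β7− CD22− they ran from −0.12 to 0.14 for Rarg, from −0.21 to 0.24 for Aldh1a2, from −0.92 to 0.33 for Cyp26a1 and from −0.021 to 0.19 for Dhrs3.

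The lists were less stable. Of other retinoid handling genes, 1 to 3 were called in α4β7− CD22− against α4β7+ without 1 library, 1 of them without α4β7+ replicate 1 or α4β7− CD22− replicate 1. Between CD22+ and α4β7− CD22− 1 rather than 2 were called without a filter, without the trend, and without α4β7+ replicate 1, α4β7− CD22− replicate 1, 2 or 3, or CD22+ replicate 2 or 4, the range being 1 to 2. Of partners and cofactors, 1 rather than 2 were called in α4β7− CD22− against α4β7+ with a pseudocount of 10, without a filter, without the trend and with only the subsets compared, and 4 by the adjusted p alone. Without 1 library the number was 0 to 2, being 1 without α4β7+ replicate 1 or α4β7− CD22− replicate 2 and 0 without α4β7− CD22− replicate 4. Of all genes, 2265, 3223 and 164 passed the adjusted p alone in the 3 comparisons, and 54 rather than 92 were called between CD22+ and α4β7− CD22− without the trend. The causes of these changes were not tested.

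A block for the replicate number gave 1254, 1843 and 100 called genes, 1181, 1766 and 88 of them also without it, and no call of a member changed. Same-numbered libraries of the α4β7+ subset correlated at 0.04 to 0.14 with α4β7− CD22− and at −0.06 to 0.18 with CD22+ libraries, so that a number shared with α4β7+ was not taken as a pairing; 6 and 4 of 8 libraries were most like the library of their own number. With the length of the longest transcript, the levels per kb of Rara, Rarb, Rarg, Rxra, Rxrb and Dhrs3 moved by more than the SD in all 3 subsets. The number of libraries per subset, few reads for Rarb, Aldh1a2 and Cyp26b1, and unknown depth limit what could be resolved.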
